A study of Mus musculus with 2 samples.

Results

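The *Cyp3a* genes encode the cytochrome P450 enzymes of subfamily 3A, and 9 of the 45777 gene symbols listed for these livers belong to them. The members *Cyp3a11*, *Cyp3a13*, *Cyp3a16*, *Cyp3a25*, *Cyp3a41a*, *Cyp3a41b*, *Cyp3a44*, *Cyp3a57* and *Cyp3a59* were taken by symbol, with their estimated read counts per transcript and summed per gene. They were selected on their measured values, because paralogs lay on opposite sides of no change between the same libraries. Their ratios are therefore given as a description, without a test. No further symbol starting with Cyp3a was listed.

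RNA was measured by sequencing of poly-A RNA from livers of C57BL/6 N mice placed on a high-fat diet (HFD) at 7 weeks of age and kept on it for 18 weeks. At week 13, 5 weeks before the end, the mice received an adeno-associated virus (AAV) retro-orbitally, encoding GFP (AAV-GFP, called the control here) or the long non-coding RNA *Wee1-AS* (AAV-*Wee1-AS*). Both groups were HFD-fed and carried a virus, and the AAV-*Wee1-AS* construct used the CMV promoter, which is not confined to hepatocytes. One library per group was analysed, whereas the design text speaks of 4 liver samples, so differences between the libraries have no replicate check, and neither the sex of the mice nor any pooling is given in the labels. The libraries held 55466182 (AAV-GFP) and 48079335 (AAV-*Wee1-AS*) estimated counts. *Wee1-AS* itself was not analysed here.

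CYP3A enzymes sit in the endoplasmic reticulum of hepatocytes and enterocytes, where they oxidise drugs, steroids and bile acids with electrons passed on by cytochrome P450 reductase. Their genes arose by tandem duplication, and many are induced through the nuclear receptors PXR (*Nr1i2*) and CAR (*Nr1i3*), which bind DNA together with RXR. In mouse liver, *Cyp3a11* is the best known drug-metabolizing member, whereas *Cyp3a41* and *Cyp3a44* are known as female-biased genes and *Cyp3a16* as a gene of fetal and newborn liver.

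All 9 members lie on chromosome 5 (mouse build mm10, the same coordinates as GRCm38), and 8 of them stand in one cluster of 770 kb at chr5:145345149-146114978. In ascending position, the cluster holds *Cyp3a57*, *Cyp3a16*, *Cyp3a41b*, *Cyp3a41a*, *Cyp3a44*, *Cyp3a11*, *Cyp3a25* and *Cyp3a59*. *Cyp3a13* lies apart, 7.42 Mb before the cluster, at chr5:137892933-137925610. *Cyp3a57* and *Cyp3a59* are on the plus strand and the other members on the minus strand, and the reference transcript of each member has 13 exons. Linked at 90% protein identity, the members fell into 4 sequence groups. *Cyp3a11*, *Cyp3a41a*, *Cyp3a41b* and *Cyp3a44* formed the first, *Cyp3a25*, *Cyp3a57* and *Cyp3a59* the second, and *Cyp3a13* and *Cyp3a16* stood alone. The proteins of *Cyp3a41a* and *Cyp3a41b* were identical (100.0%), those of *Cyp3a25* and *Cyp3a59* shared 95% of residues, and those of *Cyp3a11* and *Cyp3a25* 70.0%. *Cyp3a16* missed the first group narrowly, with 87.7% identity to *Cyp3a41a* and *Cyp3a41b*.

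The bases before the transcription start followed a similar division. Over 250 bases, *Cyp3a25*, *Cyp3a57* and *Cyp3a59* were 88.9% to 94.8% identical to each other, and *Cyp3a16*, *Cyp3a41a*, *Cyp3a41b* and *Cyp3a44* were 90.9% to 99.6% identical to each other. *Cyp3a11* shared 71.7% to 76.2% of bases with the latter 4 genes, and *Cyp3a13* shared 47.5% to 56.2% with any member. The stretch from 190 to 131 bases before the start is shown because it tells these sets apart, read 5′ to 3′ on the strand of each gene from the RefSeq promoter table (GRCm38.p6). Capitals mark AGGTCA and AGCTCA on either strand (TGACCT and TGAGCT in reverse), 6-base half-sites of the kind nuclear receptors are known to bind, where they lie wholly inside the stretch.
Cyp3a25 (chr5:146009749-146009808, minus strand): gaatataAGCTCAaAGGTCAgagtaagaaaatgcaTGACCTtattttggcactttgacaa
Cyp3a59 (chr5:146079068-146079127, plus strand): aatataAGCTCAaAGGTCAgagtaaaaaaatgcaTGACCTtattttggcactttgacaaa
Cyp3a57 (chr5:145345079-145345138, plus strand): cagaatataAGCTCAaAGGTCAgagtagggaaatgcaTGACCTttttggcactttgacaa
Cyp3a11 (chr5:145879985-145880044, minus strand): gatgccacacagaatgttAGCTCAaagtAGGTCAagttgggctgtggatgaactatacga
Cyp3a44 (chr5:145806005-145806064, minus strand): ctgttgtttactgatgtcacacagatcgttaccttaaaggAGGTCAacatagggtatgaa
Cyp3a41b (chr5:145584861-145584920, minus strand): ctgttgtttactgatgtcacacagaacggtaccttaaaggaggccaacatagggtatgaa
Cyp3a16 (chr5:145469854-145469913, minus strand): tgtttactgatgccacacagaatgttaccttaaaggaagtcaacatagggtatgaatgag
Cyp3a13 (chr5:137921750-137921809, minus strand): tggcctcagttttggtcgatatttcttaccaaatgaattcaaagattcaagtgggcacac

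The stretch of *Cyp3a41a* had the same bases as that of *Cyp3a41b*. In *Cyp3a25*, *Cyp3a57* and *Cyp3a59*, both half-sites stood 1 base apart as AGCTCANAGGTCA, with N for any base, and in *Cyp3a11* they stood 4 bases apart as AGCTCANNNNAGGTCA. These spaced motifs were spelled out after the sequences had been read. On either strand of the 250 bases, AGCTCANAGGTCA was present in 8 of 32851 RefSeq promoters (0.0244%), from 7 genes that include these 3 members. AGCTCANNNNAGGTCA was present in 4 promoters (0.0122%), that of *Cyp3a11* included. The single motif AGGTCA, which lies inside both, was present in *Cyp3a11*, *Cyp3a25*, *Cyp3a44*, *Cyp3a57* and *Cyp3a59* and in 14.0% of promoters. AGCTCA was present in the same 5 members and *Cyp3a16*, and in 15.2% of promoters. AGTTCA was present in *Cyp3a11*, *Cyp3a41a* and *Cyp3a41b*, and in 11.8% of promoters. On the gene's strand, TATAA was present in the last 50 bases before the start in *Cyp3a11*, *Cyp3a16*, *Cyp3a41a*, *Cyp3a41b* and *Cyp3a44*, and in 4.93% of promoters. A match to these letters is a description of the sequence and not of binding.

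The *Cyp3a* members differed widely in level. On the TPM scale, which corrects for transcript length, *Cyp3a11* was the most abundant member in both libraries, at 369 TPM in the AAV-GFP and 313 TPM in the AAV-*Wee1-AS* library. *Cyp3a25* had 50.6 and 231 TPM, and *Cyp3a13* had 46.5 and 109 TPM. In the AAV-GFP library the latter 2 genes were close in level, and in the AAV-*Wee1-AS* library *Cyp3a25* stood well above *Cyp3a13*. *Cyp3a59* followed with 5.4 and 15.5 TPM. *Cyp3a44* had 5.1 TPM in the AAV-GFP library, next to *Cyp3a59*, and 0 in the AAV-*Wee1-AS* library. *Cyp3a16* had 0.385 and 0.215 TPM, *Cyp3a41b* 0.231 and 0, *Cyp3a57* 0.0908 and 0, and *Cyp3a41a* was at 0 in both. The 4 highest members kept their order in both libraries.

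**Figure D1:**
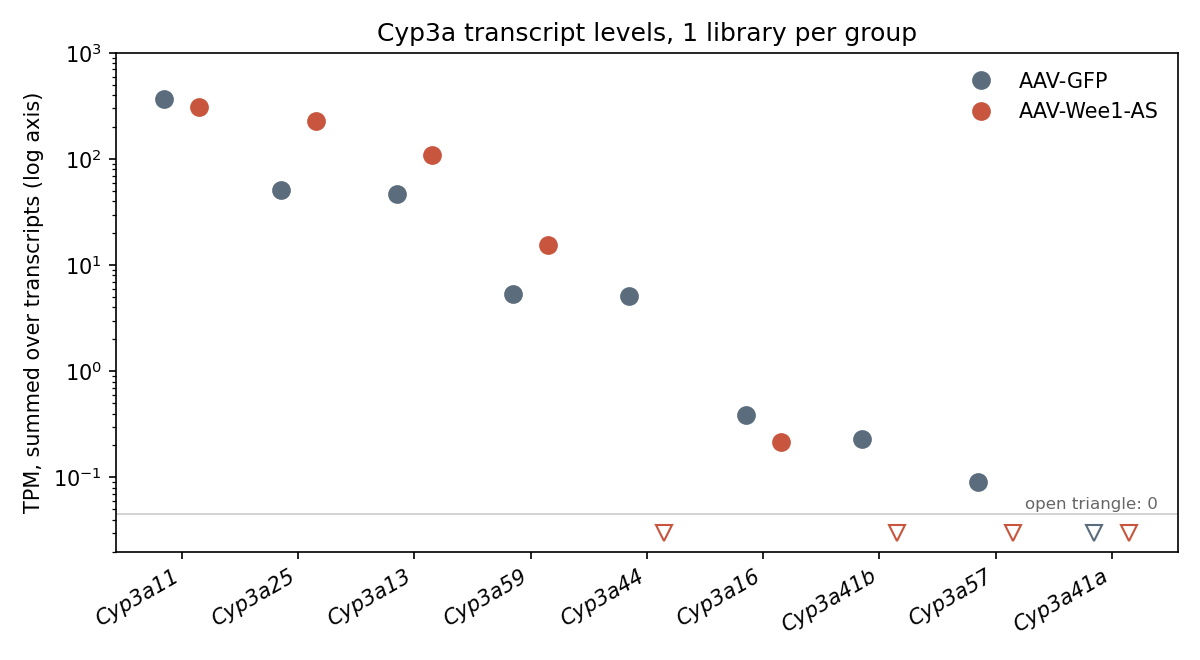
TPM of each *Cyp3a* gene (log axis) in the control and the AAV-*Wee1-AS* library, 1 point per library, with values of 0 drawn as open triangles under the line. *Cyp3a25*, *Cyp3a13* and *Cyp3a59* lie higher in the AAV-*Wee1-AS* library, and *Cyp3a44* is at 5.1 TPM and 0.

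Of the 9 members, 7 reached the minimum of 10 counts in at least 1 library. A ratio of scaled counts above 2 was found for 3 of them (*Cyp3a25*, *Cyp3a59* and *Cyp3a13*), beside 22.2% of the 15857 genes past this minimum. A ratio below 0.5 was found for 2 (*Cyp3a44* and *Cyp3a41b*), beside 8.71% of genes. *Cyp3a11* and *Cyp3a16* lay between these limits, and *Cyp3a41a* and *Cyp3a57* did not reach the minimum. With trends of the ratio in GC content and transcript length removed, the balance turned to 1 member above 2 and 4 below 0.5. The shares of all genes at this step were 7.5% and 8.42%. Without this step, 62.4% of genes of the members' GC content had a ratio above 2. The members' median log2 ratio was -0.21, and that of all genes -0.02. Since the members were selected on this contrast, nothing is read from these counts. In RNA of whole liver, fewer cells of a type and less RNA per cell cannot be told apart.

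*Cyp3a25* (gene ID 56388, chr5:145977192-146009644) had 3373 counts in the control and 13001 in the AAV-*Wee1-AS* library. The scaled count was 4.63-fold higher, a log2 ratio of 2.21 with an exact 95% counting interval of 2.16 to 2.27. This interval, like the others here, covers counting error only and no spread between libraries, since each group has 1 library. PCR reads without molecular identifiers are not independent molecules, so the interval can be too narrow even for counting error. *Cyp3a59* (gene ID 100041449, chr5:146079208-146114978), its closest relative among the members, had 415 and 1090 counts, a log2 ratio of 1.65 (1.49 to 1.82). *Cyp3a57*, the other gene of this sequence group (gene ID 622127, chr5:145345149-145390926), had 6 and 0 counts and was too low for a ratio to be read. Summed over the group, 3794 counts stood against 14091, which was 4.46-fold higher, a log2 ratio of 2.16. With the trends in GC content and length removed, *Cyp3a25* lay at 1.14 and the sum at 1.09. *Cyp3a59* then lay at 0.59, under the 2-fold limit. Of all 100-base windows of the reference transcripts, 94.0% were unique to *Cyp3a25* and 94.4% to *Cyp3a59*, and the shared windows were those between these genes. A read from such a window can be assigned to either gene, which the sum avoids.

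*Cyp3a13* (gene ID 13113), the member outside the cluster, is known for its expression in the intestine as well as the liver. It had 4483 counts in the control and 9037 in the AAV-*Wee1-AS* library, which was 2.42-fold higher, with a log2 ratio of 1.27 (1.22 to 1.33). With the trends in GC content and length removed, it lay at 0.31, under the 2-fold limit. All of its windows were unique. *Cyp3a11* (gene ID 13112, chr5:145854607-145879854) had 24931 and 17913 counts, a log2 ratio of -0.21 (-0.24 to -0.19). The scaled count was 1.16-fold lower, and the counting interval did not hold 0. Its log2 ratio was -1.33 with the trends removed, past the limit of 0.5.

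The remaining genes were present at low level or were absent in the AAV-*Wee1-AS* library. *Cyp3a44* (gene ID 337924, chr5:145773983-145805891) had 330 counts in the control and 0 in the AAV-*Wee1-AS* library. A count of 0 allows up to 3 counts in that library. Against this floor, with the control count taken as exact, *Cyp3a44* was at least 91.6-fold lower. The exact 95% counting interval of its log2 ratio, which also covers error in the control count, reached up to -6.21, a smaller fold. Of the windows of *Cyp3a44*, 94.6% were unique to it, and the gene that shared most of the others was the pseudogene *Cyp3a63-ps*, at 2.6%. *Cyp3a41b* (gene ID 100041375, chr5:145558664-145584732) had 16 and 0 counts and was at least 4.44-fold lower by the same floor. Its counting interval reached up to a log2 ratio of -1.68, again a smaller fold. *Cyp3a41a* (gene ID 53973, chr5:145694049-145720136) had 0 in both, and no fold is given.

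The division of counts between *Cyp3a41a* and *Cyp3a41b* is uncertain, since 9.2% and 11.8% of their windows were unique. Their sum was that of *Cyp3a41b* alone. *Cyp3a16* (gene ID 13114, chr5:145436309-145469740) had 22 and 11 counts, and its log2 ratio of -0.65 had a counting interval from -1.93 to 0.37, so that a difference was not detectable at this depth. Together, *Cyp3a16*, *Cyp3a41a*, *Cyp3a41b* and *Cyp3a44*, the 4 genes that were most alike in the bases before their starts, had 368 counts in the control and 11 in the AAV-*Wee1-AS* library. Of the former, 330 were those of *Cyp3a44*, and all 11 of the latter were those of *Cyp3a16*, so that the sum mostly describes *Cyp3a44*. In the sequence group of *Cyp3a11*, *Cyp3a41a*, *Cyp3a41b* and *Cyp3a44*, most counts were those of *Cyp3a11*, and the group sums of 25277 and 17913 had a log2 ratio of -0.23.

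**Figure D2:**
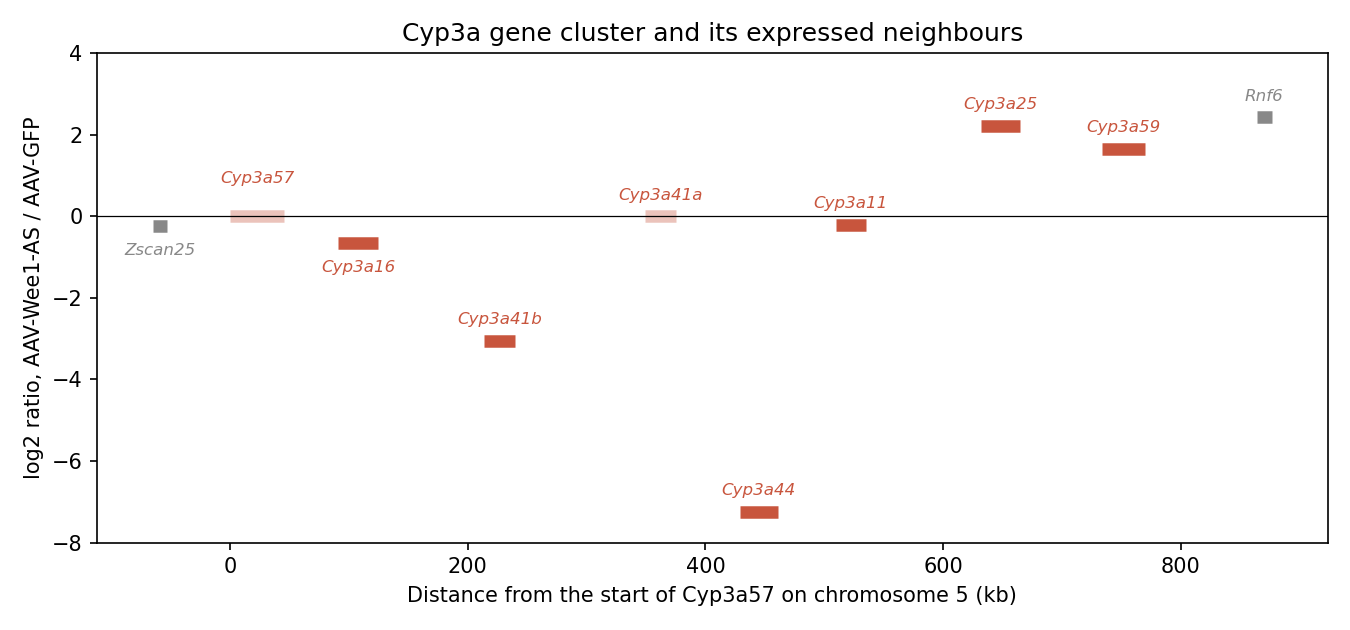
Position of the 8 clustered *Cyp3a* genes (red, pale where under 10 counts in both libraries and drawn at 0) and of the nearest gene past the count minimum on each side (grey), as distance in kb from the start of *Cyp3a57*, against the log2 ratio between the libraries. The 2 genes at the right end, *Cyp3a25* and *Cyp3a59*, lie at 2.21 and 1.65, and *Cyp3a44* lies at a fitted -7.25, which depends on the prior count because its second library is at 0.

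Along the cluster, the members with higher counts in the AAV-*Wee1-AS* library, *Cyp3a25* and *Cyp3a59*, were neighbours at the end with the highest coordinates. *Cyp3a11* stood next to them, between *Cyp3a25* and *Cyp3a44*. The nearest gene past the count minimum beyond *Cyp3a59* was *Rnf6*, a ubiquitin ligase, with 217 and 973 counts and a log2 ratio of 2.42 (2.21 to 2.65). Beyond *Cyp3a57* it was *Zscan25*, a zinc finger gene, with 366 and 258 counts and a log2 ratio of -0.24 (-0.48 to -0.01), which turned to 0.56 after removal of the trends of all ratios with GC content and length, where *Rnf6* lay at 2.05. Another 4 genes were listed inside the cluster, and 0 of them reached the minimum.

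The make-up of the *Cyp3a* transcript pool differed between the libraries. *Cyp3a11* accounted for 77.3% of the summed *Cyp3a* TPM in the control and for 46.7% in the AAV-*Wee1-AS* library. The share of *Cyp3a25* was 10.6% and 34.6%, and that of *Cyp3a13* 9.75% and 16.4%. *Cyp3a59* held 1.13% and 2.32%, and *Cyp3a44* 1.07% and 0%. A single gene thus held most of the pool in the control, whereas *Cyp3a11*, *Cyp3a25* and *Cyp3a13* each held a sizeable part in the other library. The pool as a whole was 477 TPM and 669 TPM. In counts it was 33576 and 41052, a log2 ratio of 0.55 (0.53 to 0.57). Without *Cyp3a11* the log2 ratio of the sum was 1.68, and without *Cyp3a25* it was 0.16. With the same trends removed, the log2 ratio was -0.52 for the pool, 0.66 without *Cyp3a11* and -0.92 without *Cyp3a25*, so that the first and the last turned.

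**Figure D3:**
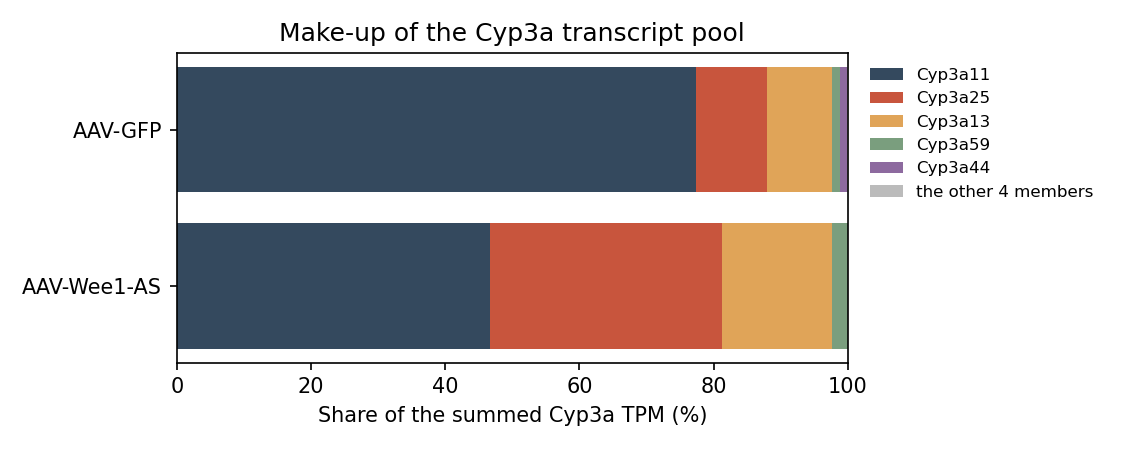
Share of each *Cyp3a* gene in the summed *Cyp3a* TPM of each library, in percent, as stacked bars that add up to 100%. *Cyp3a11* takes 77.3% in the control and 46.7% in the AAV-*Wee1-AS* library, whereas *Cyp3a25* takes 10.6% and 34.6%.

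The 9 genes were listed with 23 transcripts, of which 14 had at least 10 counts in 1 library. Taken one by one, 6 transcripts had a ratio above 2 and 3 a ratio below 0.5, beside 31.7% and 22.7% of the 39605 transcripts past the same minimum, and 7 were at 0 in both libraries. The transcripts of *Cyp3a25* differed unequally between the libraries. Its protein-coding transcript NM_019792 had 1542 counts in the AAV-GFP and 10935 in the AAV-*Wee1-AS* library, which was 8.51-fold higher. Its 3 transcripts listed as non-coding had 1831 and 2066 counts together, 1.35-fold higher. One of these, NR_030782, had 867 and 742 counts, a log2 ratio of 0.04 (-0.10 to 0.18). The others were higher in the AAV-*Wee1-AS* library. XR_003955678 had a log2 ratio of 0.80 (0.65 to 0.95) and XR_003955679 one of 0.55 (0.34 to 0.77). The coding transcript therefore made up 45.7% (exact 95% interval 44.0% to 47.4%) of the gene's counts in the control and 84.1% (83.5% to 84.7%) in the AAV-*Wee1-AS* library. Counts of overlapping transcripts are estimates by which shared reads are divided, an error that these intervals do not cover.

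*Cyp3a13* and *Cyp3a59* showed other patterns. The coding transcript NM_007819 held 97.1% and 99.8% of the counts of *Cyp3a13*, with 4352 and 9017 counts. Its non-coding transcript XR_003955579 had 131 counts in the control against 1. Its longer coding transcript XM_030254121 had 0 and 19. In *Cyp3a59*, both coding transcripts were higher in the AAV-*Wee1-AS* library. NM_001105160 had 285 and 563 counts, a log2 ratio of 1.24, and XM_030254003 had 130 and 504, a log2 ratio of 2.20. The latter made up 31.3% (26.9% to 36%) and 46.2% (43.2% to 49.3%) of the gene's counts. For *Cyp3a11*, *Cyp3a16*, *Cyp3a41b* and *Cyp3a44*, all counts lay on 1 transcript.

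**Figure D4:**
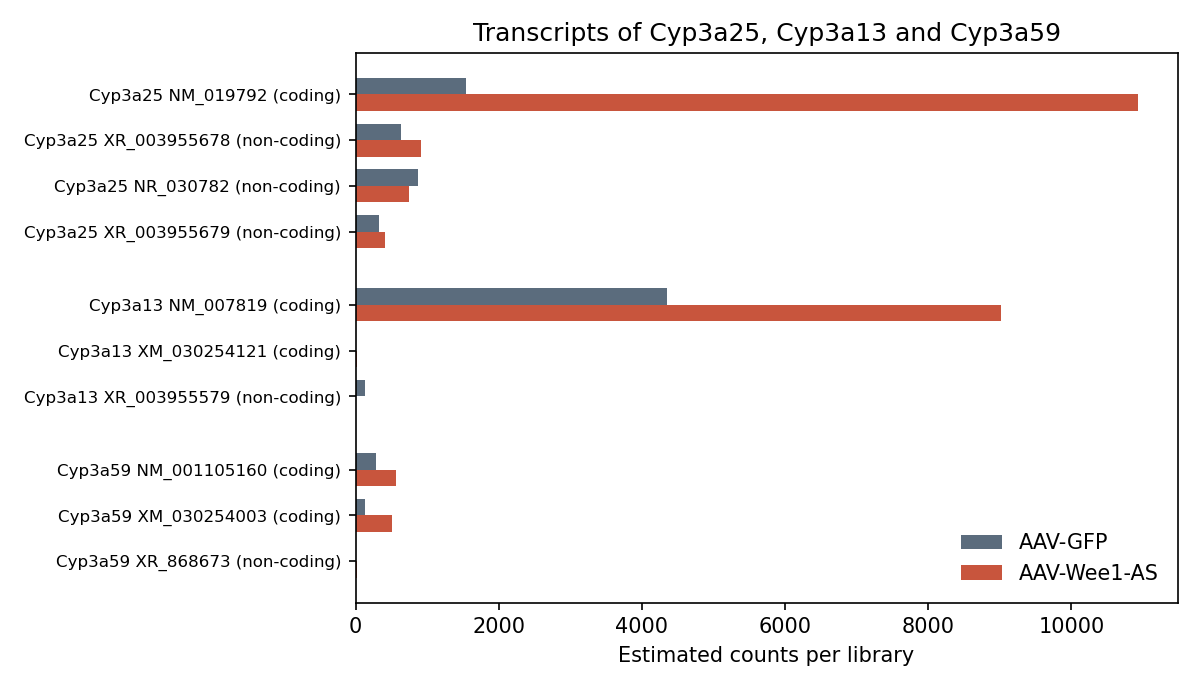
Estimated counts of each listed transcript of *Cyp3a25*, *Cyp3a13* and *Cyp3a59* in the control and the AAV-*Wee1-AS* library, 1 bar per library. The coding transcript of *Cyp3a25* goes from 1542 to 10935 counts, while its 3 non-coding transcripts lie between 332 and 917 counts in either library.

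Across all genes, the ratio between these libraries moved with base composition, and the *Cyp3a* transcripts are poor in G and C. Their GC content lay between 40.2% and 42.4%. Among the 1086 genes past the minimum within this range, the median log2 ratio was 1.35, 62.4% had a ratio above 2 and 1.47% a ratio below 0.5. *Cyp3a25* lay above this median and *Cyp3a13*, at 1.27, close to it. *Cyp3a11* and *Cyp3a16* lay below it, at -0.21 and -0.65. With the trends of the ratio with GC content and transcript length removed, the log2 ratio was 1.14 for *Cyp3a25*, 0.59 for *Cyp3a59*, 0.31 for *Cyp3a13*, -1.33 for *Cyp3a11* and -1.56 for *Cyp3a16*. A ratio above 2 was then found for 1 member (*Cyp3a25*), beside 7.5% of the 14995 genes with a GC value. A ratio below 0.5 was found for 4, beside 8.42%, namely *Cyp3a41b* and *Cyp3a44*, which had it before, and *Cyp3a11* and *Cyp3a16* (22 and 11 counts), which this step added. The order of the members by ratio was not altered, and *Cyp3a25* and *Cyp3a11* still lay on opposite sides of 0. The part of base composition in the unadjusted ratios was not tested.

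**Figure D5:**
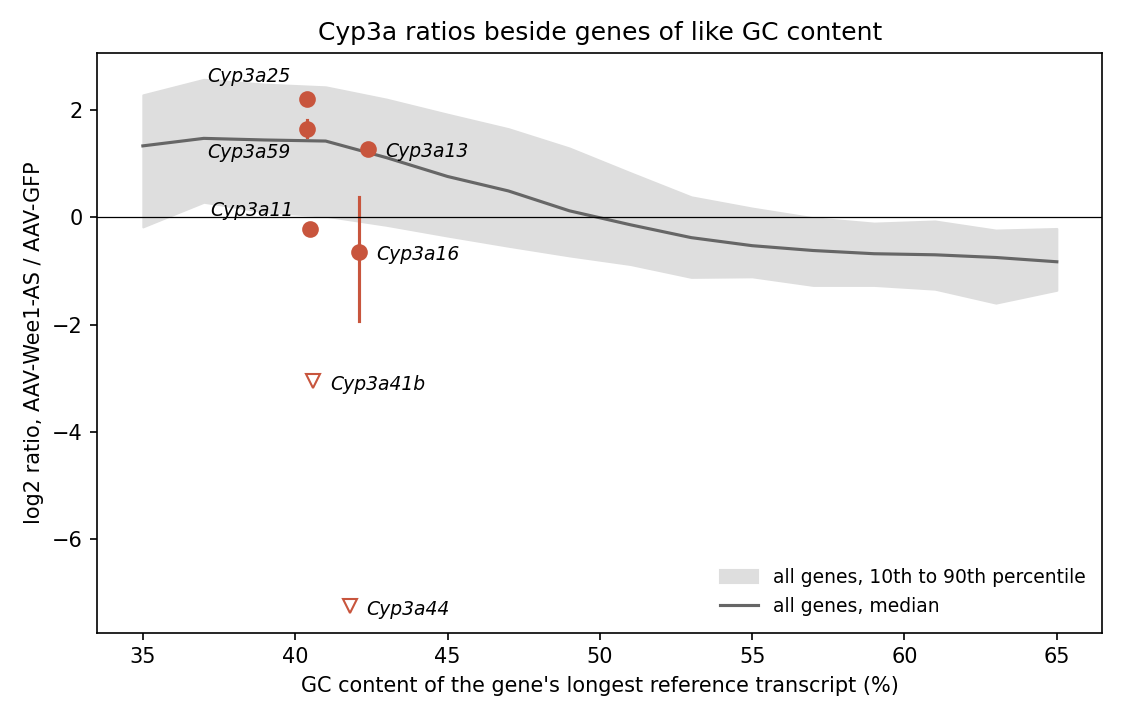
Log2 ratio (AAV-*Wee1-AS* over control) against GC content in percent, with the median (line) and the 10th to 90th percentile (band) of all genes in steps of 2% and the 7 *Cyp3a* genes past the count minimum as red points with 95% counting intervals (open triangles where the AAV-*Wee1-AS* library is at 0). *Cyp3a13* lies near the line at 1.27, *Cyp3a11* lies below it at -0.21, and *Cyp3a44* lies far under the band.

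Before removal of the trends, the known regulators of *Cyp3a* expression lay close to no change or on both sides of it. *Nr1i2* (PXR) had 3840 and 3501 counts, a log2 ratio of 0.13. *Nr1i3* (CAR) had 4645 and 4923 counts, a log2 ratio of 0.35, and their partner *Rxra* had a log2 ratio of -0.32. The hepatocyte factor *Hnf4a* lay at -0.06. Of 21 nuclear receptors, coregulators and transcription factors listed for *Cyp3a* expression, 20 were past the minimum, 4 had a ratio above 2 (*Nr3c1*, *Ncoa1*, *Ncor1* and *Nr5a2*) and 2 a ratio below 0.5 (*Rxrg* and *Nr0b2*), with a median of 0.03. These shares were near the 22.2% and 8.71% of all genes. *Nr3c1*, the glucocorticoid receptor, was highest at 2.43 (671 and 3025 counts), and *Nr0b2*, the corepressor SHP, was lowest at -1.14. With the trends removed, 0 of the 20 were past either limit, beside 7.5% and 8.42% of all genes. *Nr1i2* then lay at 0.59 and *Nr1i3* at 0.75, further from 0, while *Rxra* (0.05) and *Hnf4a* (0.20) lay on the other side of 0.

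The enzymes that supply CYP3A with electrons and heme followed no common direction. *Por*, the P450 reductase, had 24838 and 29254 counts, a log2 ratio of 0.50, and the electron donor *Cyb5a* lay at 0.25. Of 15 genes, *Cyb5b* (1.06) was above 2-fold and *Alas1*, the first enzyme of heme synthesis, was below 0.5 (-1.11, with 61181 and 23535 counts). With the trends removed, neither passed these limits (0.38 and -0.73), and *Por* was the 1 gene above 2-fold, at 1.22. The share of all genes above 2-fold and below 0.5 was 22.2% and 8.71% before and 7.5% and 8.42% after this step. Other genes known as PXR or CAR targets included *Cyp2b10*, with 97 and 87 counts and a log2 ratio of 0.10 (-0.33 to 0.54). Of 24 such genes past the minimum, 1 (*Sult1e1*, at 11 and 21 counts) had a ratio above 2 and 7 a ratio below 0.5, beside 22.2% and 8.71% of all genes, with a median of -0.38. The lowest was *Gsta1*, a glutathione S-transferase, at -2.86 (2185 and 249 counts), and *Abcb1a*, a drug efflux pump, was highest among genes with at least 100 counts at 0.92 (0.02 with the trends removed). With the trends removed, the counts were 1 and 7, beside 7.5% and 8.42% of all genes, and the median was -0.56, but the genes were not all the same. *Sult1e1* (-0.14) was no longer the gene above 2-fold, and *Gstm1* (-1.32 before and -0.78 after) was no longer among those below 0.5.

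Sex-biased liver genes were listed because *Cyp3a41* and *Cyp3a44* are among the female-biased ones. Of 8 further female-biased genes past the minimum, 3 had a ratio below 0.5 (*A1bg*, *Cyp2b13* and *Cyp2a4*) and 0 a ratio above 2, beside 8.71% and 22.2% of all genes, with a median of -0.71. *Cyp2b13* was lowest, at -2.74 (4219 and 526 counts), and *Cyp2c40* was highest, at 0.47. Of 14 male-biased genes, 6 had a ratio above 2 and 0 a ratio below 0.5, beside 22.2% and 8.71% of all genes, with a median of 0.67. *Hsd3b5*, a steroid dehydrogenase of male liver, was highest, at 3.78 (228 and 2638 counts), and *Mup20* was lowest, at -0.37. With the trends removed, 5 were above 2-fold and 1 was below 0.5 (*Mup20*, at -1.39), with a median of 0.33, beside 7.5% and 8.42% of all genes. Of the female-biased genes 2 were then below 0.5, with a median of -0.80. *A1bg* (-0.64) and *Cyp2a4* (-0.96) no longer passed the limit, while another gene of the list did, and *Cyp2c40* turned to -0.41. Among 10 genes of growth hormone signalling, which sets these patterns, *Ghr*, *Onecut1* and *Jak2* had a ratio above 2 and 0 below 0.5. The shares of all genes were 22.2% and 8.71%. The highest of the 10 was *Jak2* (2.43) and the lowest *Stat5a* (-0.60). With the trends removed, 2 of the 10 genes were above 2-fold and 1 below 0.5, beside 7.5% and 8.42% of all genes. *Ghr* then lay at -0.11, and the median of the 10 went from 0.20 to -0.09. *Xist*, the RNA of X inactivation, was at 0 in both libraries, and the Y-linked *Ddx3y* had 156 and 899 counts. All 4 Y-linked genes listed had counts in both libraries and a ratio above 2, at log2 ratios from 1.76 (*Kdm5d*) to 2.84 (*Uty*), and their median was 2.49. Removal of the trends took the median to 0.98, and 2 of the 4 stayed above 2-fold, while *Eif2s3y* (0.82) and *Kdm5d* (0.35) did not. The part of these sex-linked and sex-biased differences in the ratios of *Cyp3a44* and *Cyp3a41b* was not tested.

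Markers of the cells a liver can hold were compared in the same way. The 9 hepatocyte markers found were abundant, as the labelled tissue calls for, with 4664809 and 4873606 summed counts and a median log2 ratio of 0.11. Pericentral genes, where *Cyp3a11* is known to be expressed, had a median of 0.30. Of 16, 4 were above 2-fold (*Slc1a2*, *Rgn*, *Tbx3* and *Cyp2c37*), beside 22.2% of all genes. With the trends removed, 2 of them (*Rgn* and *Tbx3*) were, beside 7.5% of all genes. The highest pericentral gene was *Rgn* (2.18) and the lowest *Rhbg* (-0.73, and -0.01 with the trends removed). The median of 15 periportal genes was -0.08 before and 0.26 after removal of the trends. Unadjusted ratios ran from *Hsd17b6* (-1.23) to *Cps1* (1.21) among those with at least 100 counts. Of the 15, 2 were above 2-fold and 1 below 0.5, beside 22.2% and 8.71% of all genes. With the trends removed, the counts were 0 and 1, beside 7.5% and 8.42%, and *Cps1* lay at 0.43. Stellate cell markers had a median of -0.88, with 4 of 9 below 0.5 (*Col1a1*, *Col3a1*, *Acta2* and *Pdgfrb*) and 1 above 2-fold (*Lrat*, at 1.46), beside 8.71% and 22.2% of all genes, and their summed counts were 26925 and 14155. Removal of the trends again left 4 markers below 0.5, beside 8.42% of all genes. They were not all the same, since *Pdgfrb* (-0.90) no longer passed and another marker did, and *Lrat* lay at 0.11. Kupffer cell markers had a median of -0.03. Of 8, 3 were above 2-fold (*Vsig4*, *Timd4* and *Marco*), beside 22.2% of all genes. With the trends removed, 1 (*Marco*) was, beside 7.5% of all genes. The median was -0.09 for endothelial and -0.18 for cholangiocyte markers, and for erythroid markers it was -0.89 before and -0.10 after removal of the trends. Lymphocyte and neutrophil markers were sparse, at 230 and 144 and at 226 and 93 summed counts. Of 6 markers of enterocytes, the other main site of CYP3A, *Lct*, *Sis* and *Alpi* were at 0 in both libraries, and the summed counts of 340160 and 49423 lay mostly on *Apoa4* (335069 and 44701), which liver also expresses. The part of these shifts in the *Cyp3a* ratios was not tested.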

How the data were processed

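The authors deposited 1 table of RefSeq transcripts (129299 transcripts, mm10) giving for each library an estimated count and values in FPKM and TPM. The submitters' processing notes name Trimmomatic 0.38, HISAT2 2.1.0, SAMtools 1.9 and StringTie 2.1.3b. The deposited FPKM and TPM values are scaled for transcript length, and estimated counts are unnormalized whole numbers divided between overlapping transcripts. No column was left unmapped.

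Counts were summed per symbol and scaled by TMM (edgeR 4.0.16, R 4.3.3). Log2 ratios used a prior count of 2 and are AAV-*Wee1-AS* over AAV-GFP. Folds are ratios of scaled counts without a prior count, and 3 counts served as the floor. Genes that reached 10 counts in either library were kept, and counted where the log2 ratio passed 2-fold. With 1 library per group no test was made. Clopper-Pearson 95% intervals cover counting error. GC content and length came from the longest GENCODE transcript (94.6% of genes kept), and trends were removed by lowess (span 0.3, 5 cycles). Protein identity and 100-base windows were computed from GENCODE vM21 sequences. The ratios, intervals and trend removal were tested on simulated data (Python 3.11.15).

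The members and lists were chosen with earlier results of these data known. Named were all members, fixed regulators and neighbours, and the highest and lowest gene of each pathway list with at least 100 counts. Other genes past 2-fold in a list, list genes at 0 in both libraries, and Y-linked genes were named after their values were seen. Alternatives were 4 other scalings, other count filters, a prior count of 0.5, FPKM and TPM with a pseudocount, removal of the trends, and transcripts or sequence groups in place of genes.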

Additional observations from a re-analysis of the deposited data

How the results depend on the processing

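No paired analysis was possible because each group has 1 library, and for the same reason no library could be left out. No member changed the sign of its log2 ratio under any alternative run. The number of *Cyp3a* genes above 2-fold was 3 under each scaling, filter, prior count and unit. It was 1 with trends in GC content and length removed, 6 when transcripts were counted and 2 with sequence groups summed. The number below 0.5 was 2, and it became 3 with no filter and for transcripts, 0 with at least 10 counts in both libraries, 1 with at least 50 counts in 1 library, 1 with FPKM or TPM and a pseudocount of 1, 4 with the trends removed and 0 with sequence groups summed. The log2 ratio of the summed pool was 0.55, and it was 0.50 with library totals and with totals without the 20 most abundant genes, 0.53 with DESeq2 size factors, 0.35 with the upper quartile, 0.46 with FPKM, 0.49 with TPM at either pseudocount and -0.52 with the trends removed, a change of sign. Leaving out *Cyp3a11* gave 1.68 and leaving out *Cyp3a25* 0.16. Of all genes, 4908 passed 2-fold, 71.9% of them higher. This was 1336 with FPKM, 2046 with TPM and a pseudocount of 1, 2387 (47.1% higher) with the trends removed and 21583 for transcripts. The upper quartile shifted all genes by -0.21 (log2), and 56.8% of its calls were higher. The fitted log2 ratio of *Cyp3a44* ranged from -9.24 to -1.85 and that of *Cyp3a41b* from -4.92 to -0.16, since both depend on the prior count or pseudocount. In counts in place of TPM, *Cyp3a11* made up 74.3% and 43.6% of the pool and *Cyp3a25* 10% and 31.7%. In TPM in place of counts, an alternative added after the data had been seen, the coding transcript of *Cyp3a25* made up 46.2% and 84.6% of the gene.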
